A study of Mus musculus with 18 samples.

Results

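The subject is a group of 9 mouse genes that make, sense and relay interferon: the ligand gene Ifnb1, the receptor genes Ifnar1, Ifnar2 and Ifngr1, the signal transducer Stat2, and the interferon regulatory factors Irf9, Irf7, Irf3 and Irf1. Each was read through the probe set, the array's unit of several short probes for 1 transcript, that the platform annotation gives to its symbol alone, and where there were several, through the one with the highest mean over the 18 arrays. All 9 were found among 19938 genes measured in this way. Irf1 was the 1 member with another probe set.

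Affymetrix Mouse Gene 1.0 ST arrays were used to read total RNA of cultured mouse stem cells, with 3 samples in each of 6 groups. Adult and embryonic stem (ES) cells of the 129SV background were measured differentiated and undifferentiated, and adult and ES cells of the Stra8-EGFP/Rosa26 background, here called Stra8, were measured undifferentiated. The 6 groups are therefore differentiated adult 129SV, differentiated ES 129SV, adult Stra8, ES Stra8, adult 129SV and ES 129SV cells. The series title names the adult cells as multipotent germline stem cells and asks how similar their transcriptome is to that of ES cells. The labels give no cytokine, virus or other interferon stimulus, no age or sex of the animals, no culture medium or feeder layer, no way of differentiation, and no number of lines per group. The labels name the samples of a group as biological replicates, and the p-values below rest on the spread among these.

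Beta interferon, the product of Ifnb1, binds the receptor chains IFNAR1 and IFNAR2, and the kinases JAK1 and TYK2 then activate STAT proteins, of which STAT2 joins IRF9 in the complex ISGF3. ISGF3 binds the interferon-stimulated response element (ISRE) of antiviral genes and of Irf7, whose product, together with IRF3, in turn drives interferon genes. Gamma interferon acts through IFNGR1 and IFNGR2 on genes with gamma-activated sites (GAS), such as Irf1, and mouse pluripotent cells are known for a weak response to interferon and to virus.

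The promoters of 4 members are shown because their group means spanned most (Irf7, Stat2, Irf1) or because the gene encodes the ligand (Ifnb1). Each is the stretch of 250 bases before the transcription start in RefSeq's mouse assembly GRCm38.p6, 5′ to 3′ on the gene's own strand. Capitals mark a match to the ISRE core AAANNGAAA, to the GAS motif TTCNNNGAA or to the kappaB motif, searched on both strands.
Irf7, chr7:141266425-141266674, minus strand: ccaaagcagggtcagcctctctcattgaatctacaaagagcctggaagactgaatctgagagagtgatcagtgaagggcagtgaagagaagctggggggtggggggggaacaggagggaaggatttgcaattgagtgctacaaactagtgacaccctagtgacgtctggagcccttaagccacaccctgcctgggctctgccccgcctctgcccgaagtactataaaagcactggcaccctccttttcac
Stat2, chr10:128270248-128270497, plus strand: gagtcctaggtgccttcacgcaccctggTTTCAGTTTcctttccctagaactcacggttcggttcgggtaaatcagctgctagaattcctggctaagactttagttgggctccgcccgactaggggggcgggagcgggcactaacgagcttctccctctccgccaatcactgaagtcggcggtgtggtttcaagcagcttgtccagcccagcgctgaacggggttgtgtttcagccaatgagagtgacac
Irf1, chr11:53769764-53770013, plus strand: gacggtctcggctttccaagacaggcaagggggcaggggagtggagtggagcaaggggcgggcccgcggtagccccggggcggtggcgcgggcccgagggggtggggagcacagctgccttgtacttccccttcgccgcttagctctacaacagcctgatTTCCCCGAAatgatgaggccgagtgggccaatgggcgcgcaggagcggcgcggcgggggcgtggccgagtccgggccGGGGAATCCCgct
Ifnb1, chr4:88522795-88523044, minus strand: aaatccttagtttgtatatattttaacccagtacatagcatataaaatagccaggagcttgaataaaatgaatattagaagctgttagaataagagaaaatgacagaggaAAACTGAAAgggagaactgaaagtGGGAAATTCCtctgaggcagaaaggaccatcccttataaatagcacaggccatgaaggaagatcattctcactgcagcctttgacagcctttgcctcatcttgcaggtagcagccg
Stat2 held an ISRE core from base -222 to -214 before its start, on the minus strand. Irf1 held a GAS motif from -90 to -82 and a kappaB motif from -13 to -4. Ifnb1 held an ISRE core from -140 to -132 and a kappaB motif from -116 to -107, and the Irf7 stretch held none of the 3 motifs. Of the other members, Ifnar2 held a GAS motif from -214 to -206 and Ifnar1 a GAS motif that spans the start, from -5 to 4, while the windows of Irf9, Irf3 and Ifngr1 and another annotated start of Irf1 held none. Among 32851 RefSeq promoter windows of 300 bases (250 before the start and 50 after it), 10.6% held the ISRE core, 8.3% the GAS motif and 8.46% the kappaB motif. A match is a description of letters, and its absence says only that these letters are not in the window. None of the motifs overlapped another in these windows.

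The values are log2 signals, and a level of 1 member is not compared with that of another, since each probe set has its own response. Medians over all probe sets lay between 7.22 and 7.38 on the 18 arrays. Within a group, the mean correlation of an array with its replicates over all genes ran from 0.991 to 0.998, and every array had its closest array in its own group. Replicate 3 of differentiated ES 129SV stood furthest from its group. Of 8 markers of undifferentiated pluripotent cells, all 8 fell on differentiation of adult and of ES 129SV cells, and of 10 endoderm markers 8 rose in differentiated adult and 10 in differentiated ES cells, against undifferentiated cells of the same origin. Ptprc, which marks leukocytes, had a mean log2 signal between 5.51 and 6.06 in the 6 groups. Without detection calls, this signal does not show whether leukocytes were absent. Of 11 myeloid markers, which include Ptprc, 3 were lower and 1 higher in adult than in ES 129SV cells. Among the lower ones was Cd68, with means of 9.62 in adult and 10.31 in ES 129SV cells.

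Levels of the 9 members in the 6 groups fell into 3 patterns. Irf7, Stat2 and Irf9 had their highest means in ES 129SV cells, 3.73, 1.54 and 0.90 above the group next in order. The receptor genes were high in ES 129SV and in both differentiated groups and low in adult 129SV and ES Stra8 cells, and Irf1 was highest in adult 129SV cells. Ifnb1, Ifnar1 and Irf3 were the 3 members whose group means all lay within 1 log2 unit. When the 6 group means of each member were put in order, 18 of the 45 neighbouring pairs differed at an adjusted p under 0.05 (limma, adjusted over all 19938 genes). In the pairs that enter only through these orders, 37.7% to 57.3% of all genes were called, and the shares for the other pairs are given with each comparison. Neighbours were found by sorting the same means that were tested, so the count only describes the orders.

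**Figure D1:**
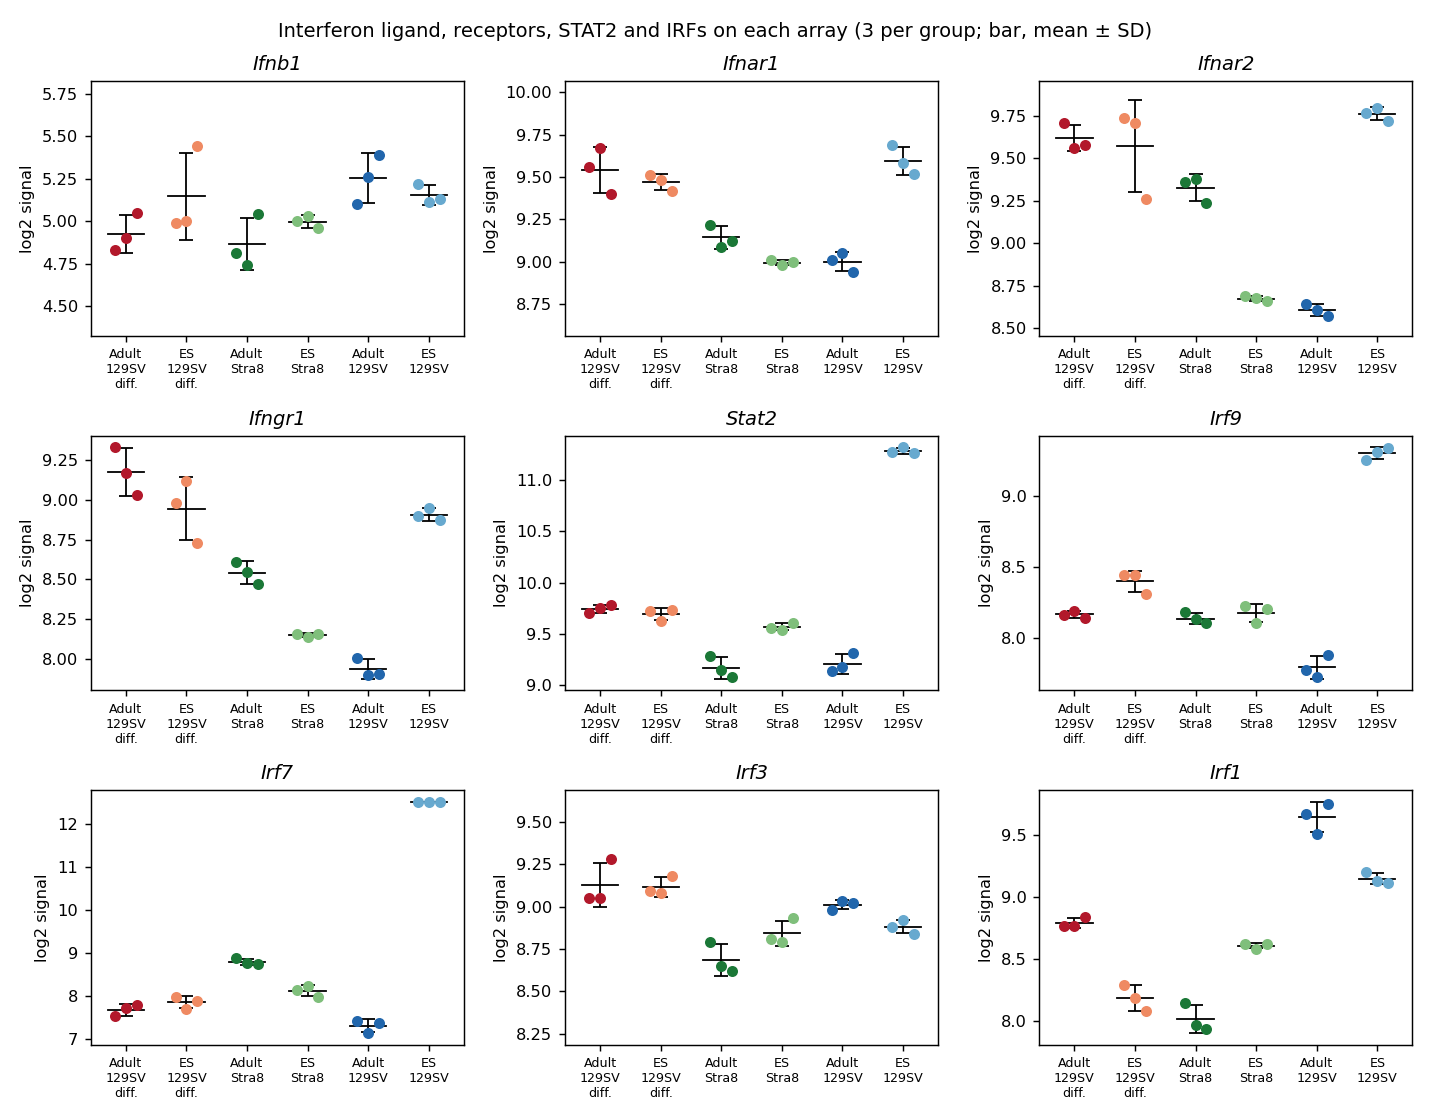
The log2 signal of each member (y axis) on each of the 18 arrays, in 6 groups of 3 (x axis), with bars for the mean ± SD. The means of Irf7, Stat2 and Irf9 are highest in ES 129SV cells, with arrays at 12.52 to 12.53, 11.26 to 11.32 and 9.25 to 9.34. That of Irf1 is highest in adult 129SV cells.

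Ifnb1, which encodes beta interferon, was the 1 member whose groups all lay under 7.29, the median of all probe sets. Its log2 signals were 4.83, 4.90 and 5.05 in differentiated adult 129SV, 4.99, 5.0 and 5.44 in differentiated ES 129SV, 4.81, 4.74 and 5.04 in adult Stra8 and 5.0, 5.03 and 4.96 in ES Stra8 cells. They were 5.10, 5.26 and 5.39 in adult 129SV cells, and ES 129SV cells had 5.22, 5.11 and 5.13. No neighbouring pair in the order of its group means differed, and the smallest adjusted p among them was 0.273. Groups further apart in the order did differ. Adult Stra8 cells (adjusted p = 0.0081) and differentiated adult 129SV cells (adjusted p = 0.0191) lay below adult 129SV cells. ES 129SV cells, which had the highest Irf7, Stat2 and Irf9, therefore had an Ifnb1 signal within the range of the other groups. No detection call was available, so this signal cannot be set against background. Of 15 other interferon ligand genes with a probe set, the summed linear signal per array ran from 1469 to 1564 in ES 129SV cells and from 1372 to 1936 over the 15 other arrays.

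Ifnar1 and Ifnar2 encode the chains of the type I interferon receptor, and Ifngr1 encodes the ligand-binding chain of the gamma interferon receptor. Ifnar2 had log2 signals of 9.71, 9.56 and 9.58 in differentiated adult 129SV, 9.74, 9.71 and 9.26 in differentiated ES 129SV, 9.36, 9.38 and 9.24 in adult Stra8 and 8.69, 8.68 and 8.66 in ES Stra8 cells. Adult 129SV cells had 8.64, 8.61 and 8.57 and ES 129SV cells 9.77, 9.80 and 9.72. ES 129SV cells and both differentiated groups were at the top without a difference between neighbours (adjusted p = 0.237 and 0.737), adult Stra8 cells came next, and ES Stra8 and adult 129SV cells were lowest with no difference between them (adjusted p = 0.597). Ifngr1 had 9.33, 9.17 and 9.03 in differentiated adult 129SV, 8.98, 9.12 and 8.73 in differentiated ES 129SV, 8.61, 8.55 and 8.47 in adult Stra8 and 8.16, 8.14 and 8.16 in ES Stra8 cells. Its signals were 8.01, 7.90 and 7.91 in adult 129SV cells, against 8.90, 8.95 and 8.87 in ES 129SV cells. The order of Ifngr1 had the same steps, with adult Stra8 cells below ES 129SV cells (adjusted p = 0.003) and above ES Stra8 cells (adjusted p = 0.00248).

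Ifnar1 spanned less, 1.52-fold between the highest and the lowest group mean, against 2.22-fold for Ifnar2 and 2.35-fold for Ifngr1. Its signals were 9.56, 9.67 and 9.40 in differentiated adult 129SV, 9.51, 9.48 and 9.42 in differentiated ES 129SV, 9.22, 9.09 and 9.12 in adult Stra8 and 9.01, 8.98 and 9.0 in ES Stra8 cells, with 9.01, 9.05 and 8.94 for adult 129SV and 9.69, 9.58 and 9.52 for ES 129SV cells. The 1 step between neighbours that passed the test separated ES 129SV and the differentiated groups from the other 3 groups (0.33 between differentiated ES 129SV and adult Stra8 cells, adjusted p = 0.000431). Over the 18 arrays the 3 receptor genes correlated with each other with Pearson's r between 0.91 and 0.946, as a description over arrays that fall into 6 groups. Ifnar2 and Ifnar1 lie on chromosome 16 with Il10rb, a receptor chain shared by lambda interferon and interleukin 10, between them.

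Stat2 encodes a STAT subunit of ISGF3, and Irf9 its DNA-binding subunit. Stat2 had log2 signals of 9.71, 9.75 and 9.78 in differentiated adult 129SV, 9.72, 9.63 and 9.73 in differentiated ES 129SV, 9.29, 9.15 and 9.08 in adult Stra8 and 9.56, 9.54 and 9.61 in ES Stra8 cells. Adult 129SV cells had 9.14, 9.18 and 9.32 and ES 129SV cells 11.27, 11.32 and 11.26. The gap from ES 129SV to the group next in order, differentiated adult 129SV, was 1.54 (adjusted p = 1.83e-12), while adult 129SV and adult Stra8 cells, the lowest, did not differ (adjusted p = 0.621). Irf9 had 8.16, 8.19 and 8.14 in differentiated adult 129SV, 8.44, 8.44 and 8.31 in differentiated ES 129SV, 8.18, 8.13 and 8.10 in adult Stra8 and 8.22, 8.10 and 8.20 in ES Stra8 cells. Its signals were 7.77, 7.72 and 7.88 in adult 129SV cells, against 9.25, 9.31 and 9.34 in ES 129SV cells. Adult 129SV cells were lowest, 0.34 under adult Stra8 cells (adjusted p = 7.69e-05), and differentiated adult 129SV, adult Stra8 and ES Stra8 cells did not differ between neighbours (adjusted p = 0.695 and 0.92).

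Irf7 encodes the factor that amplifies the type I interferon response and is itself a target of ISGF3. Its log2 signals were 7.52, 7.71 and 7.78 in differentiated adult 129SV, 7.97, 7.69 and 7.89 in differentiated ES 129SV, 8.88, 8.77 and 8.74 in adult Stra8 and 8.14, 8.24 and 7.98 in ES Stra8 cells. Adult 129SV cells had 7.42, 7.13 and 7.36 and ES 129SV cells 12.53, 12.52 and 12.52. The group means spanned 5.22, or 37.3-fold, and only 25 of the 19938 genes had a larger span. In the order below ES 129SV cells, adult Stra8 cells stood above ES Stra8 cells and these above differentiated ES 129SV cells (adjusted p = 4.09e-05 for the step from adult to ES Stra8 and 0.0199 for the step from ES Stra8 to differentiated ES 129SV), differentiated ES and adult 129SV cells did not differ (adjusted p = 0.156), and adult 129SV cells were lowest. Stat2, Irf9 and Irf7 correlated with each other over the 18 arrays with r between 0.893 and 0.956, as a description over arrays that fall into 6 groups. Below ES 129SV cells the orders differed, since adult Stra8 cells came next for Irf7 (mean 8.80) and last for Stat2 (mean 9.17).

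Irf3 encodes the factor that is present before infection and is switched on by phosphorylation. Its signals were 9.05, 9.05 and 9.28 in differentiated adult 129SV, 9.09, 9.08 and 9.18 in differentiated ES 129SV, 8.79, 8.65 and 8.62 in adult Stra8 and 8.81, 8.79 and 8.93 in ES Stra8 cells, with 8.98, 9.03 and 9.02 for adult 129SV and 8.88, 8.92 and 8.84 for ES 129SV cells. No neighbouring pair differed (smallest adjusted p = 0.106), and the whole span was 1.36-fold. Groups further apart in the order did differ. Adult Stra8 cells lay below adult 129SV cells (adjusted p = 0.000694), and differentiated above undifferentiated ES 129SV cells (adjusted p = 0.0072).

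Irf1, a GAS-driven factor with roles in the gamma interferon response and in growth control, had signals of 8.77, 8.77 and 8.84 in differentiated adult 129SV, 8.29, 8.19 and 8.08 in differentiated ES 129SV, 8.15, 7.97 and 7.94 in adult Stra8 and 8.62, 8.58 and 8.62 in ES Stra8 cells. Adult 129SV cells had 9.67, 9.51 and 9.75 and ES 129SV cells 9.20, 9.13 and 9.11. Adult 129SV cells were the highest and ES 129SV cells the next, and 4 of its 5 neighbouring pairs differed, while differentiated ES 129SV and adult Stra8 cells did not (adjusted p = 0.0567). The other Irf1 probe set was dimmer, with a mean of 7.06 against 8.73 for the one used, and its changes are given beside those of Irf1 below, since they do not always run the same way.

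For the 8 pairs of groups that enter only through these orders, the share of all genes called in either direction was 53.5% for differentiated adult 129SV over adult Stra8, 51.9% for differentiated adult 129SV over ES 129SV and 52.9% for differentiated adult 129SV over ES Stra8. It was 56.3% for adult 129SV over differentiated ES 129SV, 50.0% for adult 129SV over ES Stra8 and 37.7% for adult Stra8 over ES 129SV. It was 56.5% for adult Stra8 over differentiated ES 129SV and 57.3% for differentiated ES 129SV over ES Stra8. A member that differed in such a pair thus did so along with 37.7% to 57.3% of all genes.

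Adult 129SV cells had lower levels than ES 129SV cells of the receptor genes, Stat2, Irf9 and Irf7, and a higher level of Irf1. Of the 9 members, 6 were called lower and 1 higher, against 23.1% of all genes called lower and 23.0% called higher, and the median change of the members was -0.97, against 0.06 over all genes. Irf7 had the largest change, -5.22 ± 0.09 (SE, 3 arrays per group, adjusted p = 2.94e-16), which is 37.3-fold lower. Stat2 was lower by 4.2-fold (-2.07 ± 0.06, adjusted p = 2.04e-13) and Irf9 by 2.85-fold (-1.51 ± 0.06, adjusted p = 2.94e-12). Among the receptor genes the changes were -1.15 ± 0.10 for Ifnar2, -0.97 ± 0.09 for Ifngr1 and -0.59 ± 0.07 for Ifnar1, each with an adjusted p of 1.35e-06 or less. Irf1 was 1.41-fold higher (0.50 ± 0.07, adjusted p = 2.13e-05) and its other probe set 0.60 ± 0.11 (adjusted p = 0.000193). Ifnb1 (0.10 ± 0.11, adjusted p = 0.509) and Irf3 (0.13 ± 0.07, adjusted p = 0.134) did not pass the test.

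Among other genes of the pathway, most adaptors and most targets of ISGF3 were lower in adult than in ES 129SV cells, while most feedback inhibitors and ligand genes did not pass the test. Of 6 other receptor chains and Janus kinases 4 were lower and 1 higher (median -0.77), among them the kinases Jak2 (-1.95 ± 0.09) and Jak1 (-1.07 ± 0.05) and the chain Il10rb (-1.21 ± 0.08). Of 11 adaptors and kinases upstream of IRF3 and IRF7, 8 were lower and 1 higher (median -0.70), with Myd88, the adaptor of Toll-like receptors, at -1.17 ± 0.07, Ikbke, a kinase of IRF3 and IRF7, at -1.14 ± 0.06 and Sting1, the adaptor of cytosolic DNA sensing, at -0.98 ± 0.06. Of 18 targets of ISGF3, 17 were lower and none higher (median -1.98). Of 12 feedback inhibitors 2 were lower and 1 higher (median -0.02), the lower ones including Usp18, which silences the type I receptor and is a target of ISGF3 (-4.75 ± 0.09, adjusted p = 2.94e-16). Of 15 other ligand genes 1 was lower and 2 were higher. Irf2, an IRF that can repress interferon targets, was lower by 0.98 ± 0.08 and Irf5 by 0.77 ± 0.09, while Irf8 was higher by 0.39 ± 0.10 and Irf4 did not pass the test (0.03 ± 0.15). Also, 4 of 5 other STAT genes were lower, led by Stat6 (-0.73 ± 0.06) and Stat4 (-0.84 ± 0.08).

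Markers of several cell types moved with these genes. Of 13 fibroblast markers, 12 were lower in adult than in ES 129SV cells and 1 was higher, S100a4 (1.23 ± 0.12), with Dcn at -2.52 ± 0.05 and Col1a1 at -0.52 ± 0.06. The summed linear signal of the list lay between 20342 and 20870 on the adult 129SV arrays and between 40496 and 41205 on the ES 129SV arrays. Its part in the lower levels of the interferon genes was not tested, and in such bulk samples fewer cells of a type and less RNA per cell cannot be told apart. The summed signal of the 11 myeloid markers ran from 1889 to 2033 in adult 129SV cells, against 2346 to 2492 in ES 129SV cells, with 3 markers lower, 1 higher and Ptprc at 0.09 ± 0.08 (adjusted p = 0.435). For 8 markers of plasmacytoid dendritic and lymphoid cells the sums were 1184 to 1213 in adult 129SV cells, against 1440 to 1511 in ES 129SV cells. Of these, 2 were higher (Cd79a at 0.46 ± 0.18 and Cd3e at 0.31 ± 0.09) and 1 lower (Tcf4 at -0.53 ± 0.05). Tcf4 had the largest signal of the 8 and so weighed most in the sums. The mean log2 signals of this list overlapped, at 6.22 to 6.31 in adult and 6.16 to 6.30 in ES 129SV cells. Of 10 endoderm markers 6 were lower and none higher, led by Cubn (-2.29 ± 0.07), and of the 8 pluripotency markers 2 were lower and none higher. The part of these other markers was not tested either.

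**Figure D2:**
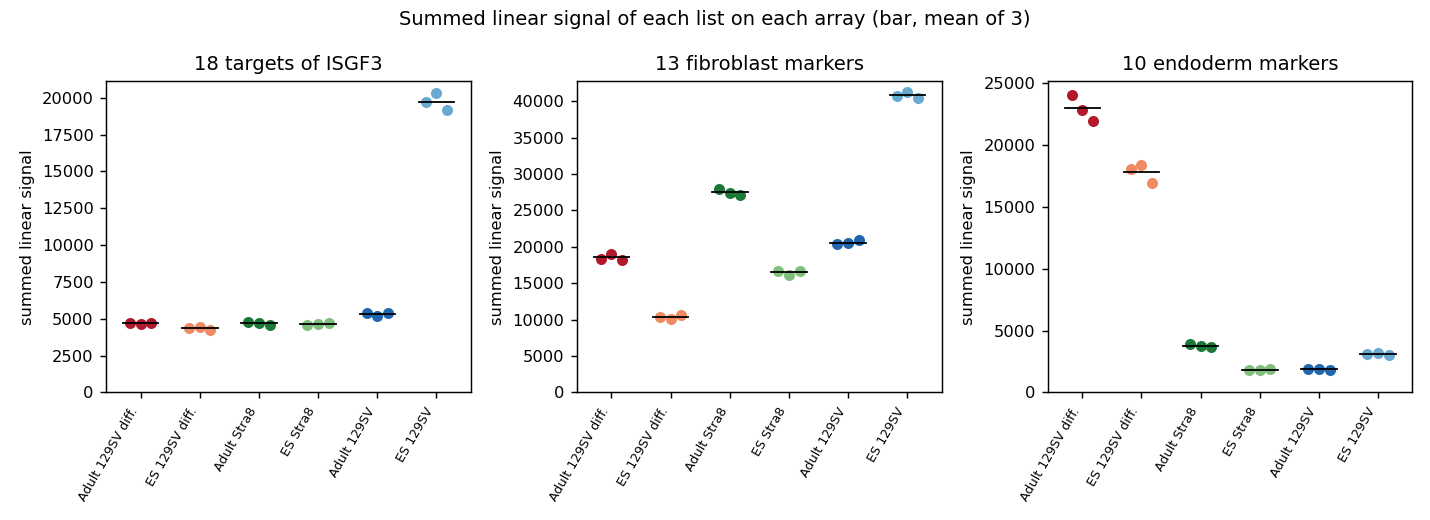
Summed linear signal (y axis) of the measured genes of 3 lists on each of the 18 arrays, in 6 groups of 3 (x axis), with a bar for the mean. The 3 ES 129SV arrays stand above all others for the targets of ISGF3 and the fibroblast markers, while endoderm markers are highest in both differentiated groups.

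In the Stra8 background the differences between adult and ES cells were partly opposite in sign to those in 129SV. Adult Stra8 cells had higher Ifnar2, Ifngr1 and Irf7 and lower Stat2 and Irf1 than ES Stra8 cells, so 3 of 9 members were called higher and 2 lower, against 13.2% of all genes called higher and 15.1% called lower. The median change was -0.04 for the members and 0.00 for all genes. Irf7 was 1.59-fold higher (0.67 ± 0.09, adjusted p = 4.09e-05), Ifnar2 1.57-fold higher (0.65 ± 0.10, adjusted p = 6.42e-05) and Ifngr1 1.31-fold higher (0.39 ± 0.09, adjusted p = 0.00248). Stat2 was 1.32-fold lower (-0.40 ± 0.06, adjusted p = 0.000109) and Irf1 1.51-fold lower (-0.59 ± 0.07, adjusted p = 1.03e-05), while the other Irf1 probe set gave 0.04 ± 0.11 (adjusted p = 0.875). Ifnar1 (0.15 ± 0.07, adjusted p = 0.118), Irf3 (-0.16 ± 0.07, adjusted p = 0.106), Ifnb1 (-0.13 ± 0.11) and Irf9 (-0.04 ± 0.06) did not pass the test. Ifnar1 was called with the 6 arrays fitted alone (adjusted p = 0.047), after quantile normalisation (0.0396) and with array weights (0.044).

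Around the members, 4 of 6 receptor chains and Janus kinases were higher in adult than in ES Stra8 cells, with Ifngr2, the partner of IFNGR1, at 0.76 ± 0.05 and Jak2 at 0.63 ± 0.09, and Tyk2 was lower (-0.42 ± 0.07). Of 18 targets of ISGF3, 7 were higher and 1 lower (median 0.22), with changes between -0.50 and 0.58. Of 12 feedback inhibitors 1 was higher, Usp18 (0.58 ± 0.09), and 5 were lower (median -0.19), led by Pias3 (-0.56 ± 0.07) and Ptpn6 (-0.59 ± 0.08). Irf2 was the 1 of 4 other IRF genes that changed, and it was higher by 0.86 ± 0.08. All 13 fibroblast markers were higher, with a summed signal of 27101 to 27968 in adult Stra8 and 16061 to 16712 in ES Stra8 cells. Of 10 endoderm markers 6 were higher and none lower (Cubn at 3.20 ± 0.07), of 8 pluripotency markers 6 were lower and none higher (Nanog at -0.74 ± 0.05), and of 11 myeloid markers 4 were higher and 1 lower (Lyz2 at 0.94 ± 0.14). The part of these markers in the members' changes was not tested. The summed linear signal of the targets of ISGF3, in which bright genes weigh most, was 4605 to 4759 in adult Stra8 and 4587 to 4718 in ES Stra8 cells. Their mean log2 signal did not overlap, at 7.50 to 7.53 in adult Stra8 and 7.28 to 7.30 in ES Stra8 cells.

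The difference between adult and ES cells itself differed between the backgrounds for 8 of the 9 members. The change from ES to adult cells was more positive in Stra8 than in 129SV for 6 members and less so for 2, against 21.3% of all genes called higher and 21.8% called lower in this interaction, with a median of 1.36 for the members and -0.06 for all genes. The interaction was 5.89 ± 0.13 for Irf7 (adjusted p = 7.63e-15), 1.81 ± 0.13 for Ifnar2, 1.67 ± 0.09 for Stat2, 1.47 ± 0.08 for Irf9, 1.36 ± 0.12 for Ifngr1 and 0.74 ± 0.09 for Ifnar1. Irf1 went the other way (-1.09 ± 0.10, adjusted p = 1.76e-07, and -0.56 ± 0.15, adjusted p = 0.0059, for its other probe set). Irf3 was called at -0.29 ± 0.10 (adjusted p = 0.0236) and lost the call without adult Stra8 replicate 2 (0.0557) or 3 (0.0629), ES Stra8 replicate 3 (0.0687) or ES 129SV replicate 3 (0.0537), and with centred arrays (0.0525). Ifnb1 gave -0.23 ± 0.16 (adjusted p = 0.277).

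Set against 129SV cells of the same origin, ES Stra8 cells had lower levels of 7 members and adult Stra8 cells higher levels of 4 and lower levels of 3. In ES cells 20.0% of all genes were called lower and 21.3% higher, with a median of -0.76 for the members and -0.01 for all genes. Irf7 was 21.2-fold lower in ES Stra8 cells (-4.40 ± 0.09, adjusted p = 3.41e-15), Stat2 3.27-fold lower (-1.71 ± 0.06) and Irf9 2.18-fold lower (-1.13 ± 0.06). Ifnar2 was lower by 1.09 ± 0.10, Ifngr1 by 0.76 ± 0.09, Ifnar1 by 0.60 ± 0.07 and Irf1 by 0.54 ± 0.07, while the other Irf1 probe set did not pass the test (-0.08 ± 0.11, adjusted p = 0.617). Of all genes called, 51.6% were higher in ES Stra8 cells and 41.5% with the arrays centred on their medians, and the members' counts were 0 higher and 7 lower either way. All 18 targets of ISGF3 were lower in ES Stra8 cells (median -2.17), as were 12 of 13 fibroblast markers, 7 of 11 myeloid markers and 5 of 10 endoderm markers, with none higher in these 3 lists. Of 8 pluripotency markers 4 were higher and 2 lower. The part of these markers was not tested.

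In adult cells 24.2% of all genes were called higher and 26.8% lower in Stra8, with a median of 0.14 for the members and -0.08 for all genes. Irf7 was 2.81-fold higher in adult Stra8 than in adult 129SV cells (1.49 ± 0.09, adjusted p = 1.41e-09), Ifnar2 1.64-fold (0.72 ± 0.10), Ifngr1 1.52-fold (0.60 ± 0.09) and Irf9 1.27-fold (0.34 ± 0.06). Irf1 was 3.09-fold lower (-1.63 ± 0.07, adjusted p = 2.63e-11) and its other probe set gave -0.64 ± 0.11 (adjusted p = 8.04e-05). Irf3 was lower by 0.32 ± 0.07 (adjusted p = 0.000694) and Ifnb1 by 0.39 ± 0.11 (adjusted p = 0.0081), and Stat2 (-0.04 ± 0.06) and Ifnar1 (0.14 ± 0.07, adjusted p = 0.0864) did not pass the test. Of 18 targets of ISGF3, 7 were higher and 3 lower, led by Ifit3 (1.35 ± 0.09) and Ifit1 (1.65 ± 0.12), which encode antiviral proteins. Of 13 fibroblast markers 8 were higher and 2 lower, of 10 endoderm markers 6 were higher and none lower, of 11 myeloid markers 2 were higher and 4 lower, and of 8 pluripotency markers 2 were higher and 4 lower. Their part was not tested. These comparisons share the ES 129SV and adult 129SV arrays with those of origin above and of differentiation below, so their values are not independent of each other.

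**Figure D3:**
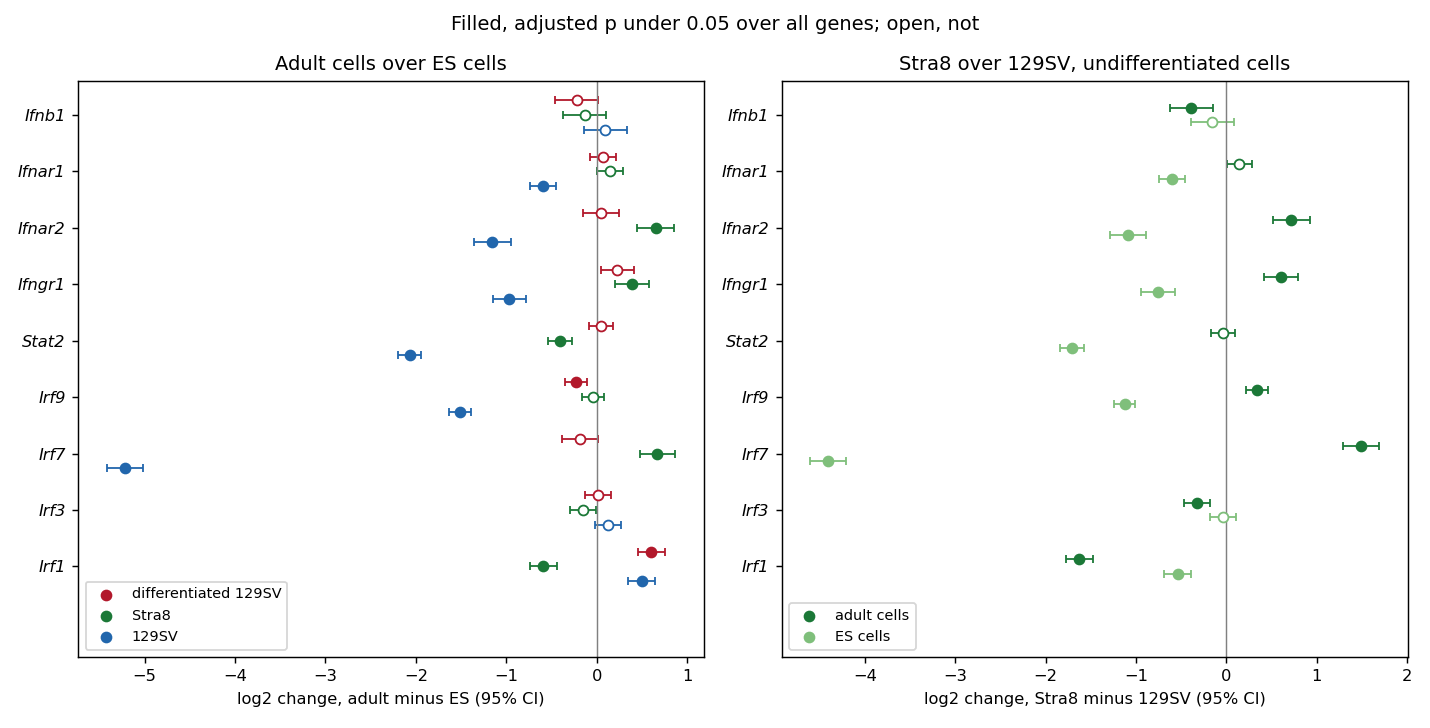
Log2 change of each member with its 95% confidence interval (x axis) for adult over ES cells in 3 settings (left) and for Stra8 over 129SV in adult and in ES cells (right), with filled points for an adjusted p under 0.05. Irf7, Stat2 and Irf9 lie far left for adult over ES 129SV (-5.22, -2.07 and -1.51) and for ES Stra8 over ES 129SV (-4.40, -1.71 and -1.13).

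After differentiation, 2 of the 9 members differed between adult and ES 129SV cells. Irf1 was called higher and Irf9 lower in differentiated adult cells, 1 member in each direction, against 19.4% of all genes called higher and 12.8% called lower, and the median was 0.05 for the members and -0.03 for all genes. Irf1 was 1.52-fold higher (0.61 ± 0.07, adjusted p = 5.96e-06), but its other probe set was called in the opposite direction (-0.30 ± 0.11, adjusted p = 0.0412), and the mean of both probe sets lost the call (0.15, adjusted p = 0.072). Irf9 was 1.17-fold lower (-0.23 ± 0.06, adjusted p = 0.0046), a call lost when the 6 arrays were fitted alone (adjusted p = 0.0776). Ifngr1 missed the threshold (0.23 ± 0.09, adjusted p = 0.0557) and passed it once replicate numbers entered the fit as a block shared by all 6 groups (adjusted p = 0.0311). The 95% confidence intervals of the other changes were -0.07 to 0.21 for Ifnar1, -0.15 to 0.25 for Ifnar2, -0.08 to 0.18 for Stat2, -0.38 to 0.02 for Irf7, -0.13 to 0.15 for Irf3 and -0.46 to 0.02 for Ifnb1. Without replicate 3 of differentiated ES 129SV, the array furthest from its group, 2 members were called (Irf1 at 0.56, Irf9 at -0.27) and Ifngr1 fell short of the threshold (0.12, adjusted p = 0.266). Without replicate 2 of that group 4 members were called, with Ifngr1 (0.32, adjusted p = 0.0105) and Irf7 (-0.26, adjusted p = 0.0481) added, and with array weights also 4.

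Of the pathway genes, 3 of 18 targets of ISGF3 were higher and 4 lower in differentiated adult than in differentiated ES cells, with summed signals of 4640 to 4730 in differentiated adult and 4218 to 4462 in differentiated ES cells. Of 12 feedback inhibitors 5 were higher, among them Socs3, an inhibitor of STAT3 signalling (0.79 ± 0.08), and 3 lower, among them Usp18 (-0.61 ± 0.09). Of 11 adaptors and kinases 2 were higher, with Sting1 at 0.77 ± 0.06, and 4 lower, with Ikbke at -0.51 ± 0.06. Of 6 receptor chains and Janus kinases none was higher and 1 was lower, Ifnlr1 (-0.78 ± 0.06). Of 5 other STAT genes 4 were higher, with Stat4 at 1.21 ± 0.08. Of 13 fibroblast markers 11 were higher and none lower, with a summed signal of 18211 to 19046 in differentiated adult and 10081 to 10569 in differentiated ES cells. Of 8 pluripotency markers 7 were higher and none lower (Utf1 at 1.22 ± 0.08), of 10 endoderm markers 5 were higher and 3 lower, and of 11 myeloid markers none was higher and 2 were lower. The part of these markers in the changes of Irf1 and Irf9 was not tested.

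On differentiation of ES 129SV cells Irf7, Stat2, Irf9 and Irf1 fell and Irf3 rose, while the receptor genes and Ifnb1 did not pass the test. Thus 1 of 9 members was called higher and 4 lower, against 27.9% of all genes called higher and 27.3% called lower, with a median of -0.19 for the members and 0.05 for all genes. Irf7 was 25.5-fold lower in differentiated than in undifferentiated ES cells (-4.68 ± 0.09, adjusted p = 3.02e-16), Stat2 3-fold lower (-1.59 ± 0.06, adjusted p = 1e-12), Irf9 1.87-fold lower (-0.90 ± 0.06) and Irf1 1.95-fold lower (-0.96 ± 0.07, adjusted p = 4.19e-09). The other Irf1 probe set gave 0.26 ± 0.11 (adjusted p = 0.0501). Irf3 was 1.18-fold higher (0.23 ± 0.07, adjusted p = 0.0072), a call lost with centred arrays (0.11, adjusted p = 0.179). Ifnar1 (-0.12 ± 0.07), Ifnar2 (-0.19 ± 0.10) and Ifngr1 (0.04 ± 0.09) had adjusted p-values of 0.129, 0.102 and 0.746. Centring the arrays moved the median of all genes to -0.08, the share of higher genes among those called to 37.1%, against 50.5%, and the members' counts to 0 higher and 6 lower, with Ifnar1 (-0.25) and Ifnar2 (-0.32) added. Without replicate 3 of differentiated ES 129SV 5 members were still called, with Irf7 at -4.69.

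All 18 targets of ISGF3 fell on differentiation of ES 129SV cells (median -2.47). Of 12 feedback inhibitors 6 fell, led by Usp18 (-3.80 ± 0.09), and 4 rose. Of 11 adaptors and kinases 5 fell, with Sting1 at -1.88 ± 0.06, and 4 rose, with Ticam1, the adaptor of Toll-like receptor 3, at 1.07 ± 0.08. Of 6 receptor chains and Janus kinases 2 rose, Ifnlr1 (1.04 ± 0.06) and Il10rb (0.69 ± 0.08), and 1 fell. Of 13 fibroblast markers 12 fell and 1 rose, to a summed signal of 10081 to 10569 in differentiated ES cells, against 40496 to 41205 in undifferentiated ES cells, and of 11 myeloid markers 5 fell and 2 rose. The part of these markers, and of the pluripotency and endoderm markers given at the start, in the changes of the members was not tested.

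On differentiation of adult 129SV cells the receptor genes, Stat2, Irf9 and Irf7 rose and Irf1 and Ifnb1 fell. Of the 9 members 6 were called higher and 2 lower, against 27.5% of all genes called higher and 32.2% called lower, and the median was 0.37 for the members and -0.08 for all genes. Ifngr1 and Ifnar2 had the largest estimated increases of the 9 members, and the receptor genes rose 2.35-fold for Ifngr1 (1.23 ± 0.09, adjusted p = 1.94e-09), 2.01-fold for Ifnar2 (1.01 ± 0.10, adjusted p = 7.59e-08) and 1.46-fold for Ifnar1 (0.54 ± 0.07, adjusted p = 2.01e-06). Stat2 was 1.45-fold higher in differentiated adult cells (0.53 ± 0.06), Irf9 1.3-fold (0.37 ± 0.06) and Irf7 1.29-fold (0.37 ± 0.09, adjusted p = 0.00274). Irf1 was 1.81-fold lower (-0.85 ± 0.07, adjusted p = 1.84e-08), with its other probe set at -0.64 ± 0.11 (adjusted p = 6.09e-05). Ifnb1 was 1.25-fold lower (-0.33 ± 0.11, adjusted p = 0.0191) and lost the call without adult 129SV replicate 3 (0.0888) or differentiated adult 129SV replicate 1 (0.0754) or 2 (0.0518), and Irf3 did not pass the test (0.11 ± 0.07, adjusted p = 0.159). Of all genes called, 46% were higher, 35.9% with centred arrays, and the members' counts were the same under centring.

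With the receptors rose Il10rb (1.93 ± 0.08), Jak2 (1.68 ± 0.09), Jak1 (0.88 ± 0.05) and Ifngr2 (0.38 ± 0.05), 4 of 6 measured receptor chains and kinases, and none fell. Of 11 adaptors and kinases 8 rose and none fell (median 0.48), with Tbk1, the main kinase of IRF3, at 0.76 ± 0.08. Of 4 other IRF genes 2 rose, with Irf2 at 1.82 ± 0.08, and 2 fell, with Irf8 at -0.55 ± 0.10. The targets of ISGF3 went both ways, 5 higher and 9 lower of 18 (median -0.14), with Ifit3 at 1.05 ± 0.09 and Parp9 at -0.75 ± 0.06, and their summed signal was 4640 to 4730 in differentiated and 5218 to 5407 in undifferentiated adult cells. Of 13 fibroblast markers 3 rose and 10 fell, of 11 myeloid markers 2 rose and 7 fell, and the pluripotency and endoderm markers moved as given at the start. Their part in the changes of the members was not tested.

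**Figure D4:**
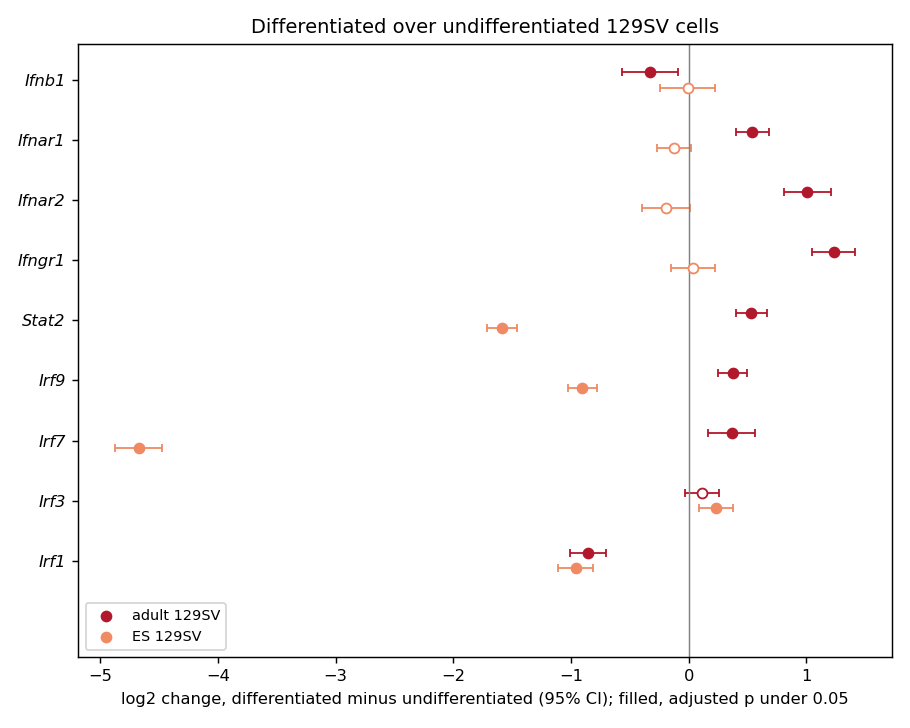
Log2 change of each member on differentiation of adult and of ES 129SV cells, with its 95% confidence interval (x axis) and filled points for an adjusted p under 0.05. The receptor genes lie between 0.54 and 1.23 in adult cells and between -0.19 and 0.04 in ES cells, and Irf7 lies at 0.37 in adult and -4.68 in ES cells.

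The response to differentiation differed between adult and ES cells for 6 members, all more positive in adult cells, against 24.2% of all genes called higher and 21.5% called lower in this interaction, with a median of 1.20 for the members and -0.08 for all genes. The interaction was 5.04 ± 0.13 for Irf7 (adjusted p = 8.71e-14), 2.12 ± 0.09 for Stat2 (adjusted p = 1.35e-11), 1.28 ± 0.08 for Irf9, 1.20 ± 0.13 for Ifnar2, 1.20 ± 0.12 for Ifngr1 and 0.67 ± 0.09 for Ifnar1. The Irf1 probe set used fell in both and gave 0.11 ± 0.10 (adjusted p = 0.401). The other Irf1 probe set, at 0.26 in ES and -0.64 in adult cells, gave -0.90 ± 0.15 (adjusted p = 0.000137). The mean of the Irf1 probe sets gave -0.39 (adjusted p = 0.00155). Irf3 (-0.12 ± 0.10, adjusted p = 0.325) and Ifnb1 (-0.32 ± 0.16, adjusted p = 0.115) did not pass the test. Without replicate 3 of differentiated ES 129SV the same number, 6, was called, with Irf7 at 5.06 and Ifnar2 at 1.04.

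For the 6 members whose group means spanned at least 1 log2 unit, the genes most alike were found by Pearson's r over the 18 arrays, which share the same 6 groups. The 5 nearest to Irf7 were Rtp4 (r = 0.997), Samd9l, Ifih1, Usp18 (0.991) and Sp100, of which Ifih1 encodes a sensor of viral RNA and Sp100 a nuclear body protein. Nearest to Irf9 were Lgals8 (0.971), Ube2l6, Ifit1, Oas1b and Met, and nearest to Stat2 were Kdm4b (0.978), Pgf, Gja1, Higd1a and Pgm1. Ifnar2 was most like Hivep2 (0.979), Fstl1, the kinase gene Jak2 (0.974), Rhoq and Tor1aip1, and Ifngr1 most like Ctsc (0.979), Skida1, Plscr1, Camk2d and Lipa. Irf1 was most like Psma1 (0.979), Stard3nl, Vdac1, Elovl6 and Jmjd6.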

How the data were processed

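Trizol extracts of 18 samples were cleared of DNA, and 300 ng of each RNA was labelled for 1 array, per the labels' protocols. The authors deposited log2 signals, and the submitters' processing notes name RMA and Affymetrix Expression Console, with versions and genome build not given in the sources used here. The sources used here do not say which arrays were normalised together. RMA draws the arrays to a shared distribution, so a shift common to most genes would not be seen. The values ran from 1.27 to 14.57 and were used as deposited.

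Of 35556 probe sets, 21789 had 1 symbol in the platform annotation, 1621 several and 12146 were not named there, and those with 1 symbol gave 19938 genes, by the highest mean over 18 arrays where a gene had more. limma 3.58.1 in R 4.3.3 fitted 6 group means on the 18 arrays together (lmFit and eBayes, with 12 residual degrees of freedom and 3.78 from the prior). Calls were made where the two-sided p, adjusted by Benjamini-Hochberg over all 19938 genes, lay under 0.05, and every adjusted p in the text is from this fit unless an alternative is named. There were 7 comparisons of groups and 2 interactions. SE use the spread of all groups. The fit was tested on simulated data.

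The members, lists (134 genes, 121 measured) and tests were chosen with earlier results of these data known. The text names the 9 members, genes taken from among those that the rule allows per list and comparison (the 4 called genes with the smallest adjusted p, and any list gene beside a member's result), and per member spanning at least 1 log2 unit the 5 genes most alike. A further list of target genes is not reported here.

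Alternatives were quantile normalisation, centring of arrays, leaving out dim genes (under 7.29 in every group), every probe set, the mean of probe sets, the compared groups alone, array weights, a trended robust prior, a replicate block and leaving out each replicate. Replicate numbers come from the sample titles. Deviations from the group means correlated between same-numbered samples by over 0.1 in every pair only for differentiated adult against differentiated ES cells (r = 0.154, 0.144 and 0.442). The block fitted replicate effects shared by all 6 groups, so it did not pair these groups alone. With 3 arrays per group, precision is limited by their number. Since the labels give no number of lines per group, the p-values may not cover the spread between lines. Differences of origin or background therefore cannot be told apart from differences between lines.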

Additional observations from a re-analysis of the deposited data

Results flagged for a closer look

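In 14 cases an effect differed between groups of samples by a test of the difference itself (limma interaction, adjusted over all genes). Of all genes, 21.3% were called higher and 21.8% lower in the interaction of origin and background. In the interaction of origin and differentiation these shares were 24.2% and 21.5%. The effect of origin, adult over ES, in Stra8 minus that in 129SV cells was 5.89 for Irf7, 1.81 for Ifnar2, 1.67 for Stat2, 1.47 for Irf9, 1.36 for Ifngr1, 0.74 for Ifnar1, -0.29 for Irf3 and -1.09 for Irf1, with adjusted p-values from 7.63e-15 (Irf7) to 0.0236 (Irf3). The effect of differentiation in adult minus that in ES 129SV cells was 5.04 for Irf7, 2.12 for Stat2, 1.28 for Irf9, 1.20 for Ifnar2, 1.20 for Ifngr1 and 0.67 for Ifnar1, with adjusted p-values from 8.71e-14 (Irf7) to 2.45e-05 (Ifnar1). Both interactions contain the ES 129SV and adult 129SV arrays, so their values are not independent. No group was large enough for a test of single outlying samples.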

How the results depend on the processing

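Under the alternatives, 166 counts of called members stayed within 1.5 times and 5 did not. For adult over ES in differentiated 129SV cells, 2 members were called, 1 with the mean of probe sets or the compared groups alone, 4 with array weights, and 2 to 4 when a replicate was left out. For adult over ES Stra8 cells 8 were called with array weights, against 5. The estimation of array weights stopped short of convergence in some fits. Of the single changes 1263 kept direction and side of the threshold, 19 gained a call, 11 lost it and 21 changed sign. For differentiated adult over ES cells the signs that changed were, with quantile normalisation, Ifnar1 (-0.0065), Ifnar2 (-0.028), Stat2 (-0.021) and Irf3 (-0.063), with centring Irf3 (-0.0045), and with array weights Ifnar2 (-0.12) and Irf3 (-0.0008). Elsewhere they were Irf3 on adult differentiation with quantile normalisation (-0.0054), Ifngr1 on ES differentiation with centring (-0.087), and Irf1 in the differentiation interaction with the mean of probe sets (-0.39) or array weights (-0.0013). Leaving out 1 replicate gave ranges across zero for Ifnar2 (-0.11 to 0.13) and Irf3 (-0.065 to 0.048) in differentiated adult over ES cells, Stat2 in adult Stra8 over 129SV cells (-0.098 to 0.014), and Ifnb1 (-0.16 to 0.066) and Ifngr1 (-0.049 to 0.14) on ES differentiation. None of these sign changes touched a called change, apart from Irf1 with the mean of probe sets, which combines probe sets that differ. The other causes were not tested. The replicate block gave 3 calls for differentiated adult over ES cells, against 2, and changed no other call. Ifnb1 had no value with dim genes left out, and the orders of levels were not rerun with dim genes left out, every probe set or the compared groups alone. Without detection calls, the dim signal of Ifnb1 limits what its changes show.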
